A study of Rattus norvegicus with 97 samples.

Results

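Within sP, a rat line bred for high alcohol intake, 4 arrays with a low signal of medium spiny neuron markers were set beside 4 arrays with a high signal. The low set is sP 2, sP 5, sP 8 and sP 9, the high set is sP 1, sP 3, sP 6 and sP 7, and sP 4 was left out, so that 8 of the 9 sP arrays and 8 of the 97 arrays of the series are compared. The sets were chosen from the values of these same arrays, by spiny neuron markers minus markers of the pallidum and septum. Every low against high value below is therefore a description with no test. The tests use arrays that did not enter the choice, or the labelled line contrast.

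The series put RNA of the nucleus accumbens shell on 97 arrays, with 1 array for each animal number, from 5 pairs of lines bred for high or low alcohol consumption. The sP rats are the preferring line of their pair and the 9 sNP rats its non-preferring line. The remaining arrays come from the preferring lines P, AA, HAD1 and HAD2 and their counterparts NP, ANA, LAD1 and LAD2. The labels give no treatment, sex, age or alcohol exposure for any animal, and they do not say how the tissue was dissected.

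Medium spiny neurons are the GABA-releasing projection neurons that make up most of the striatum, to which the accumbens shell belongs. One class carries the D1 dopamine receptor with the peptides dynorphin and substance P, and the other carries the D2 receptor with the adenosine receptor Adora2a and enkephalin. Dopamine acts in both through cAMP and the phosphatase regulator DARPP-32. The shell borders the ventral pallidum, the septum and the basal forebrain, whose cells carry other markers and release GABA, glutamate or acetylcholine.

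The choice can be seen in a marker index. It is the mean log2 signal of Drd1, Drd2, Adora2a, Ptpn5, Bcl11b and Meis2 minus the mean of Zic1 and Zic4, 8 genes that enter no claim below. The index was 2.99 in sP 2, 3.01 in sP 5, 3.83 in sP 8 and 3.26 in sP 9. It was 5.58 in sP 1, 5.28 in sP 3, 5.13 in sP 6 and 4.86 in sP 7. The high set thus lay a mean of 1.94 above the low set, and sP 4, at 4.81, fell just under the lowest array of the high set. All 4 low arrays lay below the sNP range of 4.89 to 6.36, while 3 of the 4 high arrays lay inside it. The given markers went the way of the choice. Drd1 had a mean of 11.28 in the low set and 12.86 in the high set, Adora2a 9.72 and 11.92, and Zic4 9.46 and 8.31. Zic1 was dim and similar in both sets (5.53 and 5.48).

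**Figure D1:**
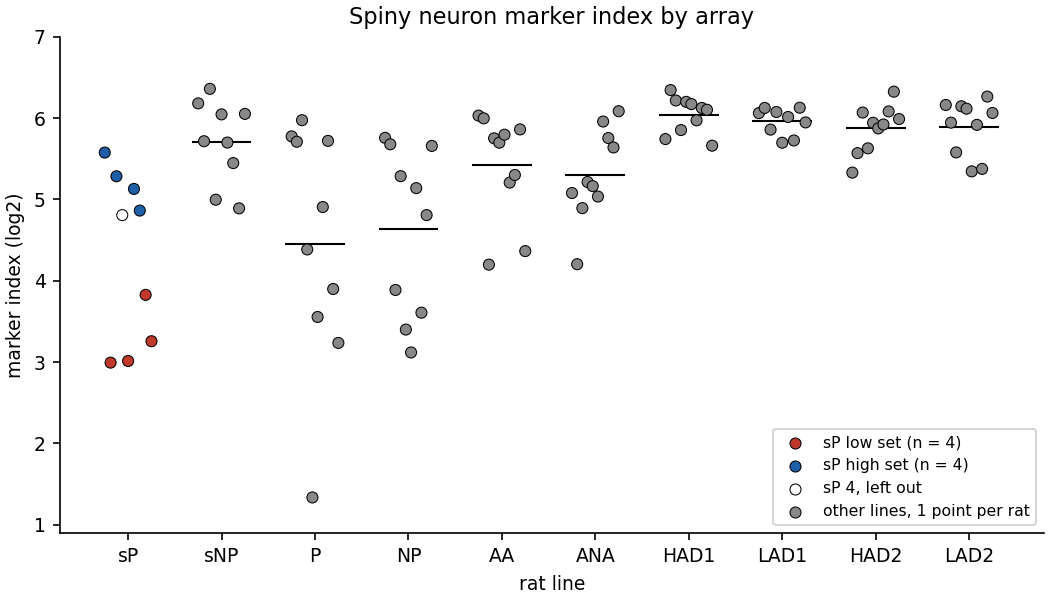
The marker index (log2, vertical axis) of each of the 97 arrays, by rat line, with the low sP set in red, the high sP set in blue, sP 4 in white and the other lines in grey with a line at their mean. The low set lies at 2.99 to 3.83 and the high set at 4.86 to 5.58, and indices as low as those of the low set also occurred in P and NP, whose lowest array, P 5, lies lowest of all 97.

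A score was made for each array from the 50 probe sets that best part the other sP from the other sNP arrays, with 0 at the sNP median and 1 at the sP median. The 8 arrays lay between 0.984 and 1.05, a description only, since the rest of each set took part in choosing the probe sets. The arrays sP 4 and sNP 4 lay at 0.413 and 0.429, away from their labels, and the other sNP arrays at -0.023 to 0.00399. Measures of RNA and labelling quality overlapped in range between the sets, that of beta-actin through sP 8 alone. The Gapdh 3' minus 5' probe set difference was 0.312 to 0.476 in the low set and 0.370 to 0.447 in the high set, and that of beta-actin 2.62 to 3.14 and 2.52 to 2.79. For beta-actin, sP 2 (2.97), sP 5 (2.83) and sP 9 (3.14) lay above every high array, and the set means were 2.89 and 2.66. The part of this shift in the other differences was not tested. Array medians were 7.86 to 7.88 and 7.87 to 7.89.

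The mean correlation between arrays, across probe sets, was 0.9961 within the low set, 0.9956 within the high set and 0.9892 between them. The high set was closer to sNP (0.9935) than the low set was (0.9846). A gene is called separated below when the 4 low and 4 high arrays did not overlap and their means differed by at least 0.5 on the log2 scale, which is 1.41-fold. Of 31042 probe sets, 1333 (4.29%) were separated and lower in the low set, and 937 (3.02%) were separated and higher. Together these are 7.31% of the probe sets, and 26.4% did not overlap whatever the size. At 1 log2 or more the counts were 360 and 99. Counted by gene, with 1 probe set each and the 8 index genes left out, 589 of 14209 (4.15%) were lower and 528 (3.72%) were higher. The median difference over all genes was 0.04. These arrays are of bulk tissue, in which fewer cells of a type and less RNA per cell cannot be told apart.

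For most separated probe sets it was the low set that lay away from sNP. Outside the index genes, the 1323 probe sets lower in the low set lay a median of -0.87 from the sNP mean in the low set and -0.09 in the high set. The mean of the high set fell inside the range of the 9 sNP arrays for 1286 of them, and the mean of the low set for 168. Of the 936 probe sets that were higher in the low set, the mean of the high set fell inside the sNP range for 915 and that of the low set for 25. These counts are a description that follows in part from the choice of arrays. By their index, every low array lay below the sNP range and most high arrays lay inside it. The same share over all probe sets was not counted.

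Genes of the signalling chain of spiny neurons were lower in the low set, with 20 of 22 measured members separated in that direction, 1 in the other and a median difference of -1.39. Ppp1r1b, which encodes DARPP-32, the dopamine-regulated inhibitor of protein phosphatase 1, had log2 signals of 10.74, 10.43, 11.04 and 10.80 in sP 2, 5, 8 and 9 and of 12.88, 12.91, 12.65 and 12.38 in sP 1, 3, 6 and 7. The sets did not overlap, and their means of 10.75 ± 0.25 and 12.71 ± 0.25 (SD, n = 4 each) differed 3.87-fold. Every low array also lay below the 9 sNP arrays, which ran from 12.16 to 13.27.

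The orphan receptor Gpr6, found on spiny neurons of the D2 class, had the largest difference of this list. Its signals were 8.48, 7.32, 8.97 and 8.20 in the low set and 10.62, 10.45, 10.12 and 10.16 in the high set, a difference of -2.10 or 4.27-fold. Rgs9, a brake on G protein signalling downstream of D2 receptors, stood at 9.63, 9.74, 10.23 and 9.83 against 11.89, 12.002, 11.34 and 11.09. The phosphodiesterase Pde10a, which degrades cAMP and cGMP in spiny neurons, stood at 10.42, 10.66, 10.80 and 10.24 against 12.66, 12.67, 12.05 and 11.58. In both genes sP 6 and sP 7 were the lower arrays of the high set, yet above all low arrays, and the means differed 3.30-fold for Rgs9 and 3.27-fold for Pde10a.

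The remaining members covered each step from receptor to channel. The G protein subunits Gng7 (-1.63) and Gnal (-0.77), which couple dopamine and adenosine receptors to adenylyl cyclase, were lower in the low set, as was the cyclase Adcy5 (-1.33; -0.61 as the mean of its 2 probe sets). The phosphodiesterase Pde1b (-1.34), the cAMP-regulated Arpp21 (-1.47), the inositol trisphosphate receptor Itpr1 (-1.44), the calcium sensor Hpca (-1.44) and the kinase Dclk3 (-1.50) were lower too. So were the muscarinic receptor Chrm4 (-1.003), the sodium channel subunit Scn4b (-1.54), the potassium channel partner Kcnip2 (-1.25; -0.76 as the mean of its 3 probe sets), the actin crosslinker Actn2 (-1.26), Syndig1l (-1.57), Rgs2 (-0.54) and Strn (-0.65; -0.39 as the mean of its probe sets). Rasgrp2, an activator of Rap GTPases, was lower on its brightest probe set (-0.82) but not as the mean of its 2 probe sets (0.03). Ppp1r16b differed by -0.15 with overlap. The cannabinoid receptor Cnr1, which sits on the terminals of many neuron types, went the other way. It stood at 12.18, 12.16, 11.71 and 11.82 in the low set and at 11.12, 11.28, 11.08 and 11.20 in the high set (0.80).

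**Figure D2:**
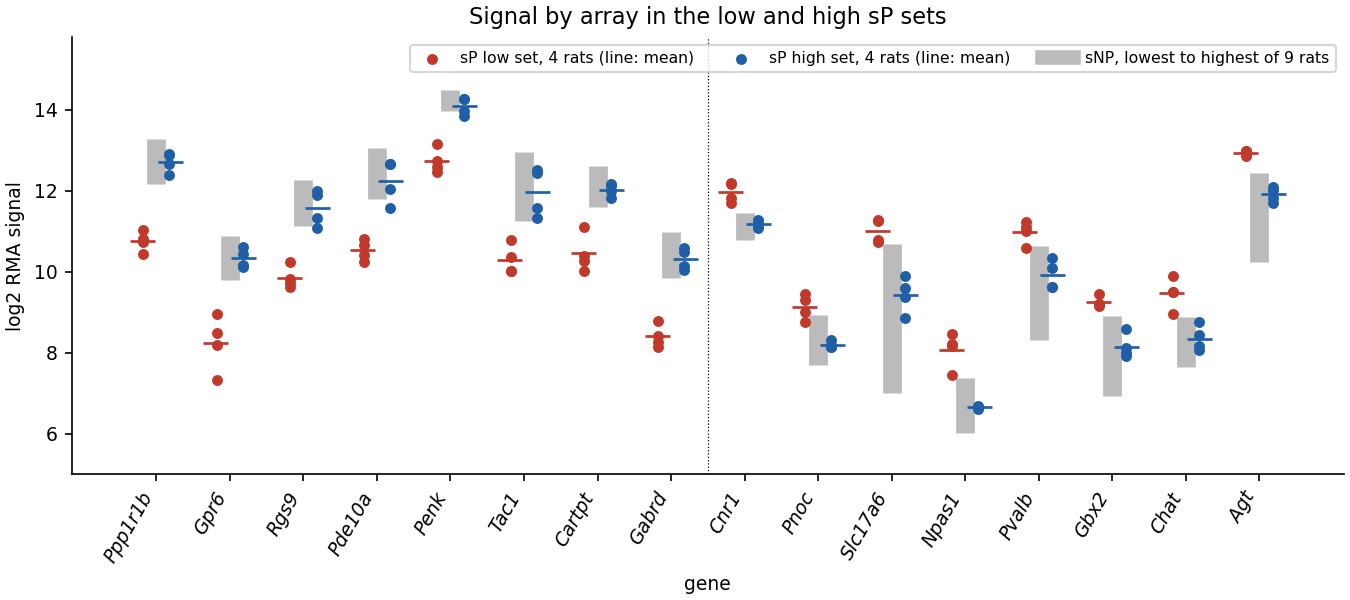
The log2 RMA signal (vertical axis) of 16 named genes in the 4 low (red) and 4 high (blue) sP arrays, with lines at the set means and grey bars from the lowest to the highest of the 9 sNP arrays. Left of the dotted line the low arrays lie under the high arrays (Ppp1r1b 10.75 against 12.71), and right of it they lie above (Slc17a6 11.01 against 9.43).

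The peptide precursors of both classes of spiny neurons were lower in the low set. Penk, the precursor of the enkephalins, stood at 12.59, 12.46, 13.16 and 12.74 against 14.26, 14.27, 13.96 and 13.85. Pdyn, the precursor of the dynorphins, stood at 11.66, 11.48, 12.23 and 11.94 against 13.28, 13.14, 13.12 and 13.08. Tac1, the precursor of substance P, stood at 10.37, 10.02, 10.78 and 10.02 against 12.43, 12.51, 11.58 and 11.34. None of the 3 overlapped, and the differences were -1.35 for Penk, -1.33 for Pdyn and -1.67 for Tac1, so that peptides of the D1 and the D2 class differed by similar amounts. Cartpt, the precursor of the CART peptides, stood at 10.28, 10.03, 11.10 and 10.40 against 11.99, 12.16, 12.12 and 11.82 (-1.57). The nociceptin precursor Pnoc was higher in the low set, at 9.30, 8.76, 9.01 and 9.45 against 8.14, 8.15, 8.20 and 8.32 (0.93). The neurotensin precursor Nts overlapped between sets (0.40). Of the 6 peptides, 4 were separated and lower and 1 was higher, with a median of -1.34.

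Several genes of this chain are known targets of cAMP signalling through CREB, so the promoters of the lower signalling and peptide genes were searched for the full CREB site. The motif TGACGTCA, which reads the same on both strands and was searched alone, was looked for from 250 bases before to 50 bases after each gene start in the RefSeq promoters of build GRCr8. Of the 24 separated lower genes of both lists, 20 had a promoter in the table and 2 of these held the motif, against 525 of all 27457 promoters (1.91%). These are Cartpt and Gpr6, whose 250 bases before the gene start are printed 5′ to 3′ on the minus strand with the motif in capitals, since they are the members of both lists in which it was found. The Cartpt stretch is chr2:32991236-32991485, with the motif starting at -142, and the Gpr6 stretch is chr20:46075252-46075501, with the motif starting at -93. A match of letters is not a measured binding site.
Cartpt: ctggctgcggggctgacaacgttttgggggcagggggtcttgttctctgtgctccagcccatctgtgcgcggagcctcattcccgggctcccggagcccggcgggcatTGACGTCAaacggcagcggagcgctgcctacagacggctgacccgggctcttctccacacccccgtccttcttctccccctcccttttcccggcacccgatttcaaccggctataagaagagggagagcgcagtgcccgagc
Gpr6: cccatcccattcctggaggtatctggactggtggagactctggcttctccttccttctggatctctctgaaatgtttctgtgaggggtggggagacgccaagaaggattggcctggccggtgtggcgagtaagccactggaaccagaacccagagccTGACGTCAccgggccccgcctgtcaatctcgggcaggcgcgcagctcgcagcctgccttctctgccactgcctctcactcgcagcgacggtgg

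Transcription factors of spiny neurons were lower in the low set for 5 of 10 measured members, with none higher and a median of -0.60. The retinoic acid receptor Rarb stood at 10.37, 10.33, 11.04 and 10.59 against 12.26, 12.18, 12.08 and 11.90 (-1.52). Foxp1, a forkhead factor of both spiny classes, differed by -1.43 with all 5 of its probe sets lower, Mef2c by -1.31, Foxp2 by -0.71 and the D1 class factor Isl1 by -0.58. Without sP 7 the median of the list was -0.70.

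Immediate early genes, which are transcribed within minutes of neuronal activity, were lower for 5 of 13, with none separated and higher and a median of -0.46 (-0.66 without sP 7). Fosb stood at 5.87, 5.66, 6.21 and 5.98 against 7.33, 7.32, 7.25 and 6.75 (-1.24). Egr1 stood at 10.84, 10.93, 11.07 and 10.54 against 12.17, 12.27, 11.74 and 11.56 (-1.09). Egr4 (-1.26; -0.61 as the mean of its 2 probe sets), Nr4a3 (-0.75) and Junb (-0.69) were the others, while Egr2 overlapped through sP 8 and sP 6. The motif TGACGTCA was in none of the 4 promoters found for these 5 genes.

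Kinases and cAMP enzymes outside the spiny list were lower for 9 and higher for 2 of 19, with a median of -0.49. Camk2a, the alpha subunit of calcium/calmodulin kinase II, stood at 11.92, 12.07, 12.32 and 11.90 against 13.36, 13.49, 13.48 and 13.16 (-1.32). The regulator Rgs14 (-1.23) and the calcineurin subunit Ppp3ca (-0.94; -0.56 as the mean of its 3 probe sets) were lower as well. The cyclase Adcy8 went the other way, at 9.21, 9.18, 9.14 and 9.17 against 7.85, 7.69, 8.05 and 8.47 (1.16). Of 11 calcium-binding proteins 3 were lower, led by calbindin, Calb1 (-1.58), and 2 were higher, parvalbumin, Pvalb (1.06), and calretinin, Calb2 (0.71).

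Receptor families were split between the sets by subunit. Of 11 GABA-A receptor subunits 4 were lower and 2 higher. The delta subunit Gabrd, which forms extrasynaptic receptors, stood at 8.14, 8.28, 8.80 and 8.42 against 10.58, 10.49, 10.14 and 10.04 (-1.90, 3.74-fold; -0.92 as the mean of its 3 probe sets, all 3 lower). Its partner Gabra4 (-1.57), Gabra5 (-0.64) and Gabra2 (-0.55) were lower, and Gabrb2 (0.70) and Gabre (0.95; 0.55 as the mean of its 2 probe sets) were higher. Of 21 glutamate receptor genes 7 were lower, among them the NMDA receptor subunit Grin2b (-0.86; -0.53 as the mean of its 2 probe sets), the metabotropic receptor Grm4 (-0.81) and the AMPA receptor subunits Gria3 (-0.76) and Gria1 (-0.73). The kainate receptor subunit Grik1, at 8.41, 8.32, 8.40 and 8.25 against 7.20, 7.25, 7.43 and 7.61 (0.97), and the NMDA receptor subunit Grin2d (0.96; 0.60 as the mean of its 2 probe sets) were the 2 that were higher.

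Monoamine receptors other than Drd1 and Drd2 were lower for 3 and higher for 3 of 19. The adrenergic receptor Adra2c (-1.05) and the serotonin receptors Htr1d (-1.04) and Htr4 (-0.93) were lower. The adrenergic receptors Adra1b (1.06) and Adra2a (0.73) and the serotonin receptor Htr7 (1.07; 0.36 as the mean of its 3 probe sets, 2 of them higher) were higher. None of the 4 opioid receptor genes was separated, with differences from -0.20 for the kappa receptor Oprk1 to 0.42 for the nociceptin receptor Oprl1. With 7.86% of all genes separated in either direction, this is no result about so few genes.

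Potassium channel genes were lower for 9 and higher for 4 of 23. The inward rectifier Kcnj4 stood at 7.69, 7.79, 8.16 and 7.95 against 9.36, 9.19, 9.23 and 9.04 (-1.30), and Kcnab1 (-1.28), Kcna4 (-1.26) and Kcnq5 (-1.23; -0.36 as the mean of its 3 probe sets, 1 of them lower) were lower by similar amounts. The 4 that were higher were the G protein-gated Kcnj6 (1.16), the fast Kv3 channels Kcnc2 (1.03, 6 of 6 probe sets) and Kcnc4 (0.87), and the channel partner Kcnip1 (0.89). Of 18 sodium and calcium channel genes 4 were lower, led by Cacna2d3 (-0.94) and Cacna2d1 (-0.83), and none was separated and higher.

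Markers of the pallidum were higher in the low set, with 11 of 15 separated in that direction, none in the other and a median of 0.66. The transcription factor Npas1, which marks a class of pallidal neurons, stood at 8.22, 8.47, 7.45 and 8.16 in the low set and at 6.66, 6.63, 6.69 and 6.65 in the high set (1.42, 2.68-fold). Parvalbumin stood at 11.01, 11.11, 10.58 and 11.23 against 10.09, 9.64, 9.63 and 10.33. In both genes sP 8, the low array with the highest index, was the lowest of its set. The neurofilament genes Nefm (1.07) and Nefh (1.03), the Kv3 channel Kcnc1 (0.89), Spp1 (0.90) and Vamp1 (0.66) were higher, as were Kcna2 (0.60), Nkx2-1 (0.58), Scn1a (0.58) and Tacr1 (0.53). Nefl (0.23), Ecel1 (0.76), Syt2 (0.09) and Kcna1 (-0.25) were not separated. As means over their probe sets Vamp1 (0.42), Kcna2 (0.42) and Tacr1 (0.31) differed by less.

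All 4 measured markers of cholinergic neurons were higher in the low set, with a median of 1.01. Chat, the enzyme that makes acetylcholine, stood at 9.50, 9.89, 8.97 and 9.51 against 8.06, 8.76, 8.16 and 8.43 (1.11). The choline transporter Slc5a7 (0.88) and the vesicular transporter Slc18a3 (0.93) were higher, but for Slc18a3 the sets nearly met, with sP 8 at 7.501 and sP 3 at 7.497. The transcription factor Gbx2 stood at 9.16, 9.46, 9.20 and 9.21 against 7.91, 8.13, 7.99 and 8.58 (1.10).

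Markers of the septum were not higher as a list by their median, though 3 of 10 were separated and higher, where 3.72% of all genes were. The other separated member, 1 of 10, was lower, where 4.15% of all genes were. Of 10, Cbln2 (0.99; 0.64 as the mean of its 2 probe sets), Trpc4 (0.67) and the nuclear receptor Nr2f2 (0.75; 0.48 as the mean of its probe sets) were higher, the transcription factor Lhx2 was lower (-1.39), and Zic2, Prokr2, Oxtr, Avpr1a, Homer2 and Esr1 lay between -0.09 and 0.11 with overlap. The median was 0.05. Of 7 markers of thalamic glutamatergic neurons 2 were higher, and one of these was the vesicular glutamate transporter Slc17a6, carried by glutamatergic neurons of the thalamus, hypothalamus and ventral pallidum. It stood at 11.26, 10.74, 10.78 and 11.28 against 9.60, 8.85, 9.37 and 9.89 (1.58). The transcription factor Tcf7l2 was higher too (0.83, 5 of 5 probe sets). The third separated gene of the list was Calb1, which was lower and is also among the calcium-binding proteins.

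Markers of other neurons were not separated in a common direction. Of 13 cortical glutamatergic markers 3 were lower, Lamp5 (-1.39), Gnb4 (-0.65) and Fezf2 (-0.56), and Nr4a2 was higher (0.58), with a median of -0.02. Of 11 interneuron markers Chodl was lower (-0.62) and calretinin higher. Of 16 hypothalamic markers the peptide precursor Pmch was separated and higher (0.82), while Gal (1.232), Crh (1.10) and Calcr (-0.91) overlapped. Of 6 markers of the subependymal zone, Dlx1 was higher (0.83) and Cd24 lower (-1.12).

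No marker of oligodendrocytes, microglia, endothelial cells or the vessel wall and meninges was separated. The 14 oligodendrocyte markers differed by 0.07 to 0.37 with a median of 0.20, and the 13 microglial markers by 0.08 to 0.37 with a median of 0.24, all above 0. The median was 0.14 for 10 endothelial markers and 0.01 for 15 of the vessel wall and meninges. Nor was any of 6 oligodendrocyte precursor markers (median 0.14) or of 17 genes of oxidative phosphorylation (median 0.18). Since 7.86% of all genes were separated in either direction, the lack of separated members in lists this short is near that share. It is no result about these cell types or genes. Among 12 astrocyte markers, angiotensinogen, Agt, made by astrocytes of some brain regions, stood at 12.99, 12.99, 12.87 and 12.92 against 11.82, 11.70, 12.02 and 12.09 (1.03). The amino acid transporter Slc7a10 was also higher (0.54), and the other 10 were not separated.

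Hemoglobin genes were higher on average in the low set with overlap, as seen in Hba-a3 (0.69), Hbb (0.59) and the heme enzyme Alas2 (0.58). The array sP 7 stood apart on genes of the meninges and choroid plexus, with Col1a2 at 10.74 against 7.57 to 7.96 in the rest of the high set and transthyretin, Ttr, at 7.97 against 6.15 to 6.52. Of 12 choroid plexus and ependymal markers, Prlr (0.92; 0.38 as the mean of its 3 probe sets) and Otx2 (0.66; 0.32 as the mean of its 2 probe sets) were higher in the low set and Rarres2 was lower (-1.08). The part of blood, meninges or choroid plexus in the other differences was not tested.

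**Figure D3:**
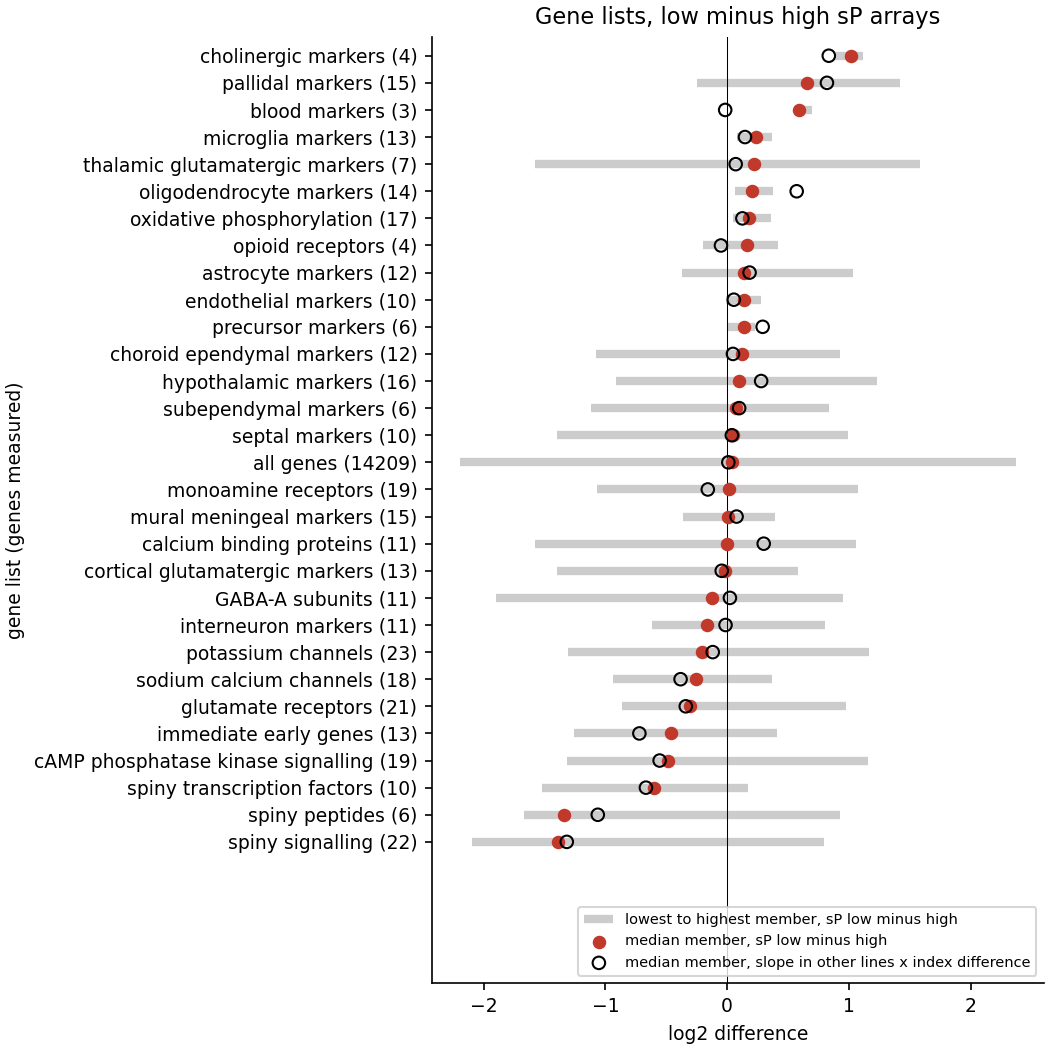
Gene lists (vertical axis, with the number of genes measured) by the low minus high difference in log2 (horizontal axis), with the median member in red, a grey bar from the lowest to the highest member, and an open circle at the median slope in the other lines times the index difference of 1.94. Spiny signalling genes lie at a median of -1.39 and cholinergic markers at 1.01, while all genes lie at 0.04.

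Genes outside the lists reached differences as large. After leaving out the index genes, the largest difference among separated genes was that of Tbc1d10c, a Rab GTPase-activating protein, at 6.15, 5.46, 6.79 and 6.32 in the low set and 8.79, 8.74, 8.02 and 7.94 in the high set (-2.20, 4.58-fold). Rasgrp1, which activates Ras on diacylglycerol and calcium, stood at 7.13, 7.06, 7.74 and 6.05 against 9.58, 9.49, 8.84 and 8.38 (-2.07). The actin-binding Nexn (-1.97), Plac9 (-1.92), Strip2 (-1.92), the inositol trisphosphate kinase Itpka (-1.90), the sialidase Neu2 (-1.88) and the anoctamin Ano3 (-1.79) followed. The thyroid hormone-binding Crym (-1.78) and the actin regulator Wipf3 (-1.71; -1.14 as the mean of its 2 probe sets) close the 15 largest with Ppp1r1b, Gpr6, Gabrd, Rgs9 and Pde10a. The next after these were Dgkb at -1.70 and Cracdl at -1.69.

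Among genes that were higher in the low set, Mab21l1, a factor of neural development, stood at 9.38, 8.66, 8.79 and 9.14 against 7.44, 7.09, 7.13 and 7.80 (1.63, 3.09-fold). Slc17a6 was second, followed by Lypd6b (1.43), a modulator of nicotinic receptors, Rab37 (1.42), Npas1, the adaptor Stac, Trim16 (1.332; 0.90 as the mean of its 2 probe sets) and the guidance cue Sema3c (1.315). The intermediate filament gene Prph (1.311), the secreted Tafa4 (1.268) and Tafa1 (1.233), the inward rectifier Kcnj16 (1.258), the Wnt pathway receptor Lgr5 (1.253), Aard and Sertm1 (1.216) completed the 15, before Hebp2 (1.20) and Hapln4 (1.20). Sema3c was nearly level within the low set, at 12.08, 12.18, 12.10 and 12.13, against 10.69, 10.69, 10.60 and 11.25.

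The same relation was then measured in the 88 arrays of the other 9 lines, none of which entered the choice. With limma, and a separate mean for every line, each probe set was given a slope on the marker index, stated per unit lower index so that its sign matches low minus high. With adjusted p under 0.05 over all probe sets, 7245 (23.3%) were lower and 7527 (24.2%) were higher where the index was lower. Without P and NP, the lines with the widest index, the counts were 4807 and 4850. Counted by gene, 23.8% were called lower and 29.8% higher, together 53.6%. The slope is a relation across arrays, and the p-values measure the spread between these arrays, which the labels do not say are independent cohorts.

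Of 22 spiny signalling genes, 21 had a called slope downward and 1 upward, the latter again Cnr1 (0.48 ± 0.061 SE, adjusted p = 1.08e-10). Ppp1r1b fell by 0.90 ± 0.042 log2 per unit of index (adjusted p = 2.26e-32) and Gpr6 by 0.91 ± 0.051 (adjusted p = 4.27e-28), each with the same sign in 9 of 9 lines. Of the 6 peptides 4 fell, among them Penk (-0.40 ± 0.021, adjusted p = 1.67e-29), and Pnoc rose (0.65 ± 0.060, adjusted p = 2.92e-16). Nts did not pass (-0.01 ± 0.061, adjusted p = 0.937). Of 10 spiny transcription factors 8 fell and 1 rose, and of 13 immediate early genes 10 fell and 1 rose.

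As the index fell, 13 of 15 pallidal markers rose and 1, Kcna1, fell (-0.23 ± 0.034). One of the 13, Nefl, did not pass without P and NP (0.04 ± 0.066, adjusted p = 0.682). All 4 cholinergic markers rose, with Chat at 0.46 ± 0.045 (adjusted p = 2.72e-15), and so did Slc17a6 (1.501 ± 0.107, adjusted p = 5.93e-22). Of 10 septal markers 4 rose and Lhx2 fell (-0.62 ± 0.040). Agt rose by 0.97 ± 0.064 (adjusted p = 7.41e-24). All 14 oligodendrocyte markers rose, with a median slope of 0.29 per unit, which over the index difference of 1.94 comes to 0.57, while their median difference between the sP sets was 0.20. The hemoglobin genes and Alas2 had no called slope. Of 19 kinase and cAMP genes 14 fell and 4 rose, of 21 glutamate receptor genes 13 fell and 7 rose, and of 23 potassium channel genes 11 fell and 7 rose. For the last 2 families the share that rose is near the 29.8% of all genes and is no result about them. The 4 of 10 septal markers that rose are also not far from that share. With 53.6% of all genes called, the lack of a call in the few hemoglobin genes and Alas2 is no result either.

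Among genes outside the index, which were left out of this ranking, the smallest p-values of the slope were these. In the downward direction Baiap2, an adaptor of dendritic spines, led with -0.69 ± 0.023 (adjusted p = 4.79e-42), before Camkv, Lmo7, Itpka, Rab40b, Ccsap, Gabrd, Myo5b, Ngef and Mast3. Each of these 10 had the same sign in 9 of 9 lines and was separated and lower in the low sP set, by -0.99 for Mast3 (-0.34 as the mean of its 3 probe sets) to -1.90 for Gabrd. In the upward direction Lbhd2 led with 0.54 ± 0.024 (adjusted p = 9.10e-34), before Npr2, the receptor of C-type natriuretic peptide, Ciapin1, Phlda3, the selenoprotein Gpx3, the serotonin receptor Htr7, the arginine transporter Slc7a3, Capza1, Prph and Ccdc136. All 10 were separated and higher in the low sP set, by 0.67 for Capza1 to 1.311 for Prph.

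Across all probe sets the difference within sP followed the slope elsewhere. Of the 2259 separated probe sets outside the index genes, 2192 were called in the same direction in the other lines, 1 was called in the opposite direction and 66 were not called, where 47.6% of all probe sets were called in either direction. Of the 14760 probe sets with a called slope, 14.9% were separated in sP. Pearson's r between the difference and the slope was 0.872 across probe sets and 0.882 across 14209 genes, which are not independent replicates. The difference was a median of 1.14 times the slope times the index difference for probe sets that were separated and called lower, and 0.879 times for those higher. Separated probe sets were chosen for a large difference in sP, which can raise these ratios. They do not describe all probe sets.

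**Figure D4:**
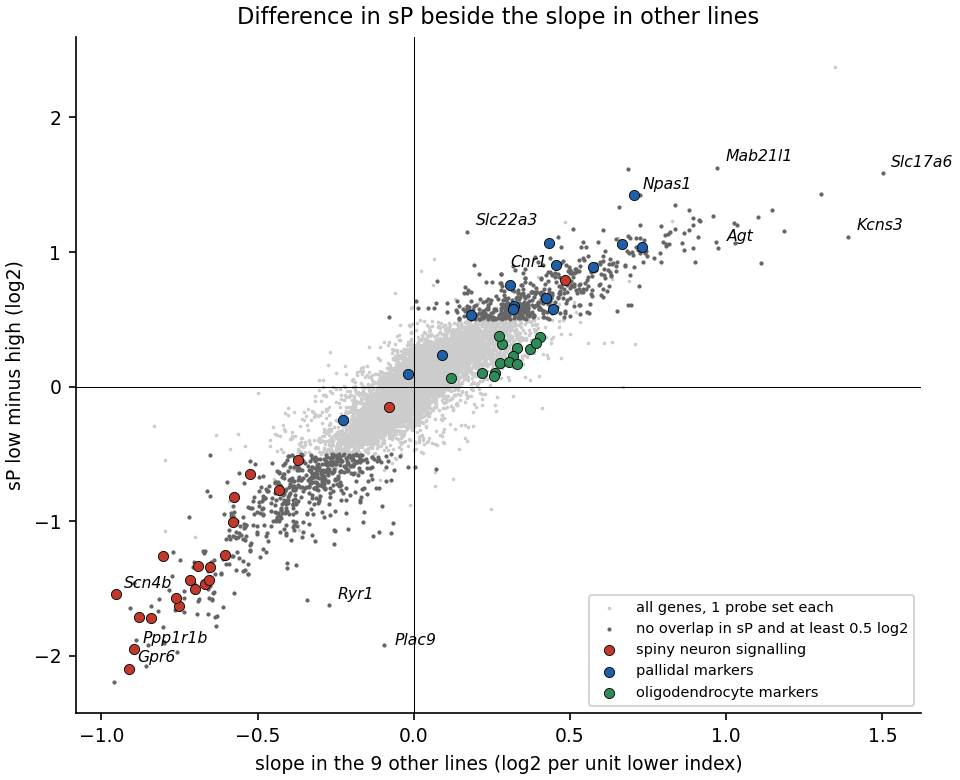
The low minus high difference in sP (log2, vertical axis) against the slope in the 9 other lines (log2 per unit lower index, horizontal axis), 1 point for each of 14209 genes, with separated genes in dark grey and 3 lists in colour. Spiny signalling genes lie at the lower left and pallidal markers mostly at the upper right, oligodendrocyte markers lie below the trend, and Plac9 stands apart at a slope of -0.10 and a difference of -1.92.

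A small group of genes was separated in sP with no called slope over the 9 other lines together, 30 of the 1117 separated genes, and those named next were chosen after their values were seen. Plac9, a small secreted protein, stood at 7.52, 7.64, 7.998 and 7.77 in the low set and 9.94, 9.82, 9.23 and 9.63 in the high set, with a slope in the other lines of -0.10 ± 0.067 (adjusted p = 0.247). Without AA the slope was called, at -0.18 ± 0.039 (adjusted p = 5.64e-05). It was also called in a planned limma fit without 7 arrays, at -0.20 ± 0.040 (adjusted p = 1.50e-05). These were HAD1 28, LAD1 37, AA 19, ANA 20, P 9, NP 9 and sNP 4. Unlike the spiny genes, both sets lay above every sNP array, which ran from 5.50 to 7.26, and 1 of its 2 probe sets had the sign given. The mean over both probe sets differed by -0.92. The melanocortin receptor Mc4r was 7.55 ± 0.28 in the low set and 8.65 ± 0.26 in the high set, with a slope of -0.13 ± 0.064 (adjusted p = 0.0865) over the 9 lines. Within sNP alone Mc4r had a called slope of the same sign (-0.51 ± 0.104, adjusted p = 0.0125). The neuropeptide Y receptor Npy1r (-0.54) and the somatostatin receptor Sstr2 (-0.51) were lower as well. Over the 9 lines their limma slopes were -0.11 ± 0.052 (adjusted p = 0.0599) and -0.04 ± 0.051 (adjusted p = 0.530). Within sNP alone the slopes had the same sign and narrowly missed a call, at -0.49 ± 0.148 (adjusted p = 0.0698) and -0.40 ± 0.112 (adjusted p = 0.0528). The leptin receptor Lepr differed by -0.60, but by -0.38 without sP 7, the array that stands apart on meningeal and choroid plexus genes.

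In the upward direction the organic cation transporter Slc22a3, which takes up monoamines, was 8.20 ± 0.17 in the low set and 7.04 ± 0.12 in the high set (1.15), with a slope of 0.17 ± 0.099 (adjusted p = 0.158). Usp18, a ubiquitin-like protein protease, was higher by 0.79 (0.61 without sP 5) and the GTPase Igtp by 0.58 (0.52 without sP 5). The array sP 5 was the highest of the low set for both. Ifit3 was higher by 0.64, but by 0.26 without sP 5, which stood at 7.10 against 5.40 to 5.69 in the rest of the low set. Vgf, a neuronal secreted precursor, was 0.52 higher in the low set with a slope of -0.08 ± 0.036 (adjusted p = 0.0710).

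In sNP alone, 9 arrays of the other line of the pair, a slope on the index was called lower for 934 probe sets (3.01%) and higher for 1709 (5.51%) with limma, together 8.51%. By gene, 3.22% were lower and 7.34% higher, against 14 lower and 1 higher of the 22 spiny signalling genes and 11 higher of the 15 pallidal markers. Glial markers were called higher with them, in 6 of 14 for oligodendrocytes, 3 of 6 for their precursors, 5 of 12 for astrocytes and 3 of 13 for microglia, and none was called lower. Their part in the other slopes was not tested. Of the 2259 separated probe sets, 1364 (60.4%) were called in the same direction there and 0 in the opposite one. The called genes included Ppp1r1b (-0.66, adjusted p = 0.00673), Gpr6 (-0.63, adjusted p = 0.00516) and Agt (1.395, adjusted p = 0.000942), and Slc17a6 was called at 2.25 per unit (adjusted p = 0.00185). Tac1 (-0.76, adjusted p = 0.145) and Chat (0.45, adjusted p = 0.236) did not pass. The counts rested on single arrays. Without sNP 8 they were 344 and 849, without sNP 3 483 and 965, and without sNP 4 462 and 882, whereas without sNP 2 1818 were lower. Of the 189 named genes, 41 lost their call without sNP 8, among them Ppp1r1b (-0.52, adjusted p = 0.0710) and Gpr6 (-0.49, adjusted p = 0.0547).

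The labelled contrast of sP with sNP uses the same sP arrays. Comparing 9 sP with 9 sNP arrays, limma called 1809 probe sets lower in sP (5.83%) and 2197 higher (7.08%). With the marker index as a covariate it called 117 lower (0.377%) and 136 higher (0.438%), and 178 lower when sP 4 and sNP 4 were left out as well. Ppp1r1b was -1.07 in sP without the index (adjusted p = 0.0432) and 0.23 with it (adjusted p = 0.889), and it did not pass with the Gapdh covariate either (-0.94, adjusted p = 0.113). Of the 22 spiny signalling genes 15 were called lower without the index, where 6.35% of all genes were, and 0 with it, where 0.352% were. Of the 15 pallidal markers 8 were called higher without the index (8.75% of all genes) and 0 with it (0.352%). Since the index is itself made of spiny neuron markers, the loss of spiny calls follows from the covariate and is no test. The loss of pallidal calls is no test either. The index subtracts Zic1 and Zic4 and differs between the lines, with means of 4.31 in sP and 5.71 in sNP. Where 0.352% of all genes are called, 0 of a short list is near that share. Without the index 6 of 12 astrocyte and 4 of 6 oligodendrocyte precursor markers were called higher in sP as well. With it 0 of either were, which is no test for the same reasons. The index of the low arrays lay below the sNP range, so in part the covariate reaches beyond the range both lines share. Without the index and with the Gapdh 3' minus 5' difference as covariate the counts were 397 lower and 466 higher.

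Plac9 was higher in sP by 1.78 without the index (adjusted p = 0.0101) and by 2.81 ± 0.39 SE with it (adjusted p = 0.000704). It and Fam111a, a protease of DNA replication (4.01 without and 3.33 ± 0.49 with the index, adjusted p = 0.00107), combined a line difference with separated sets, Fam111a being 9.51 in the low set and 8.95 in the high set. With the replicate number as a block beside the index limma called no probe set (lowest adjusted p = 0.0989, and 1859 at an unadjusted p under 0.05), so both calls were lost, with Plac9 at 2.53 (adjusted p = 0.333). Genes with line differences that hardly involved the sets included Mpeg1, a pore-forming protein of macrophages, at 8.06 in the low set, 8.14 in the high set and 11.03 ± 0.20 (SD, n = 9) in sNP, and the chemokine Ccl6, at 8.57, 8.57 and 6.01 ± 0.86.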

How the data were processed

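The deposited values are log2 signals that the authors made with RMA, per the submitters' processing notes, which name no version. Per the labels' protocols, biotin-labelled cRNA was made from 25 ng of RNA with 2 cycles of amplification. The values ran from 3.56 to 16.06, with array medians of 7.82 to 8.02, and were used without further scaling. Of 31099 probe sets 57 controls were left out; 20826 of the rest carry 1 symbol, and a gene is its brightest such probe set. The labels do not say that arrays of a line are from separate litters or cohorts, and the number of arrays limits the precision. The rule that set the 2 sP sets, the 29 gene lists (358 of 410 genes measured) and the tests were chosen with earlier results of these data known. Tests used lmFit and eBayes of limma 3.58.1, under R 4.3.3 (two-sided, Benjamini-Hochberg over 31042 probe sets), checked on simulated data. Alternatives changed the arrays, index, scaling, filters, probe sets, covariates and pairing. Named genes are the 15 largest separated differences each way, up to 4 members of each list with the largest differences and all members of the spiny signalling, peptide, pallidal and septal lists, and the 10 smallest slope p each way. Provisional symbols and the 8 index genes were skipped, and exceptions are stated. No genome was used. Promoter sequences are from RefSeq (GRCr8).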

Additional observations from a re-analysis of the deposited data

Results flagged for a closer look

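A check for single arrays far from the rest of their set was made 69 times, on the index, the 2 control probe set differences and the 30 genes with the largest differences, and found 6; by chance about 1 in 20 such groups would be found. In sNP, the Gapdh 3' minus 5' difference of sNP 1 was 0.800, with the other sNP arrays between 0.320 and 0.519. In the high sP set, sP 7 was nearest to the low set for Aard (8.13, others 7.49 to 7.56) and for Sema3c (11.25, others 10.60 to 10.69). In the low sP set, sP 8, which has the highest index of that set, was nearest to the high set for Strip2 (10.09, others 9.21 to 9.32) and for Ano3 (10.70, others 10.12 to 10.21). The array sP 5 was lowest of the low set for Tafa1 (8.42, others 8.70 to 8.73).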

How the results depend on the processing

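Separated probe sets numbered 1285 to 1553 lower and 885 to 1126 higher when each of the 8 arrays was left out in turn, 360 and 99 at 1 log2, and 598 higher among brighter probe sets only. Rasgrp2 changed sign, to 0.034, as the mean of its probe sets. Slopes outside sP were called lower for 4807 and higher for 4850 probe sets without P and NP, and for 6165 to 7425 and 6087 to 7547 without each line in turn. Leaving out P 5, the array of lowest index, was chosen after the data were seen, as was leaving out sNP arrays other than sNP 4, and the former kept both counts within 1.5 times. The values of Lepr without sP 7 and of Ifit3, Usp18 and Igtp without sP 5 were also chosen then. The sNP slopes ranged from 344 to 1818 lower and 849 to 2446 higher over the 9 arrays left out in turn. Between sP and sNP, the Gapdh covariate gave 397 lower and 466 higher, and leaving out sP 4 and sNP 4 with the index in the fit gave 178 lower. The cause of these shifts was not tested. Whether shared animal numbers pair sP with sNP is not settled by these values. Deviations of same-numbered arrays correlated from -0.22 to 0.56, above 0.1 in 5 of 9 pairs. Of the 9 sP arrays, 2 correlated best with their own number. With the replicate number as a block, limma called 2213 lower and 2822 higher; with block and index together it called 0 lower and 0 higher, where 1859 probe sets had an unadjusted p under 0.05 (5.99%) and the lowest adjusted p was 0.0989.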

Other observations

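The largest mean difference of any of 14209 genes between the sP sets, chosen after its values were seen, was that of Ngfr, the low-affinity neurotrophin receptor, which is known as a marker of cholinergic neurons of the basal forebrain. It stood at 8.30, 9.15, 6.58 and 7.93 in sP 2, 5, 8 and 9 and at 5.00, 7.19, 4.98 and 5.30 in sP 1, 3, 6 and 7, a mean of 2.37 higher in the low set. The sets overlapped, because sP 3 lay above sP 8, and so the gene is not counted as separated. In the 9 other lines Ngfr rose by 1.349 ± 0.0895 SE per unit lower index (limma, adjusted p = 1.26e-23), with the same sign in 9 of 9 lines, while within sNP alone it did not pass (0.35 ± 0.364, adjusted p = 0.651). The sNP arrays ran from 5.05 to 6.78.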
